A study of Homo sapiens with 18 samples.

Results

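The genes described here are 34 established transcriptional targets of the tumour suppressor p53, measured in MDA-MB-231 cells, a basal breast adenocarcinoma line. The list was made by function and the rule used no measured value, but its members were chosen with earlier results of these data known. All 34 members were found, by symbol, among the 60603 genes of the deposited count tables. The study asked how the chromatin reader ZMYND8, when overexpressed, changes the response of these cells to the DNA-damaging drug doxorubicin, and poly(A) RNA of 9 conditions was sequenced, 2 libraries for each. The transient system holds 3 conditions. Control cells are labelled without drug, the next received 0.6 µM doxorubicin for 48 h, and the last carry the label of a FLAG ZMYND8 vector beside the same drug treatment. The protocol names an empty vector and a vehicle, but the labels do not say whether the control and doxorubicin libraries received them. The inducible system holds 6 conditions. A lentiviral, doxycycline-driven construct (pInducer20, selected with G418) expressed either GFP or ZMYND8, and each of these GFP cells and ZMYND8 cells was sequenced without doxorubicin, after 6 h and after 48 h of 0.6 µM doxorubicin. All 6 inducible conditions, the untreated ones included, received 250 ng/mL doxycycline. Each construct is represented by 1 derived cell line, so the effect of ZMYND8 and any other difference between the lines cannot be told apart.

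p53 binds DNA as a tetramer at response elements built from paired copies of a short decamer, and after DNA damage it switches on genes for growth arrest, DNA repair, cell death and metabolic adjustment. Doxorubicin, an anthracycline that traps topoisomerase II on broken DNA, is a classical inducer of this programme. Many of the same genes can also be reached by TP63 and TP73, by stress factors such as ATF4 and ATF3, or by other damage-responsive pathways. The part of p53 itself in the changes described below was not tested.

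Depth ranged from 5729294 to 24713822 counts per transient library and from 18300628 to 23724398 per inducible library. Levels are given as CPM, read counts scaled by library size with TMM factors. Of the 34 members, 32 passed the filter on low counts in the transient system, all except CYFIP2 and SPATA18, and 33 in the inducible system, all except SPATA18, which had at most 0.589 CPM in any library. All adjusted p-values come from the quasi-likelihood F test of edgeR, with Benjamini-Hochberg adjustment over all genes tested. ZMYND8 stood at 209 and 208 CPM in untreated GFP cells and at 922 and 927 in ZMYND8 cells. Both transient libraries with the ZMYND8 label held 159.8 and 125 CPM, not above the 182 and 123 with doxorubicin alone or the 219 and 199 in control cells. The label is therefore not borne out by the ZMYND8 level, and they are called the labelled libraries below. Between the second labelled library and the second doxorubicin library, chi-square over degrees of freedom was 1.39, while the other 14 transient pairs gave 9.71 to 55.6. In antisense genes lying at least 90% within exons of an expressed gene, the count density was 1.46 to 1.64 times that of the sense gene in the transient libraries. In the inducible ones it was 0.0636 to 0.103 times, so transient counts hold reads of both strands. Of the cell type markers, VIM, CD44, CAV1 and AXL were abundant, with VIM at 4494 and 4468 CPM in untreated GFP cells, and ALB and ESR1 stayed under 1 CPM in every library. Not all markers of other cells were absent. The luminal marker GATA3 stood at 12.21 and 12.35 CPM in transient control libraries. With doxorubicin there, PTPRC, of leukocytes, went from 0 and 0 to 0.5209 and 1.258 CPM. PECAM1, of endothelium, went from 1.336 and 0.87 to 3.82 and 2.517. CDH1, an epithelial marker that this line nearly lacks, went from 0.862 and 0.5801 to 10.4 and 11.02 CPM in GFP cells after 48 h. EPCAM, another epithelial marker, went the other way, from 37.4 and 36.97 to 29.8 and 27. Of the 11 markers tested in the inducible system 3 were higher and 7 lower after 48 h in GFP cells, and 4 and 5 in ZMYND8 cells, or 3 and 4, and 5 and 5, with total counts. With TMM factors, 64.2% and 62.3% of all genes were called in these comparisons. The part of a change in cell state in the results was not tested. In such bulk samples fewer cells expressing a gene and less RNA per cell cannot be told apart.

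The promoters of 26 members were matched in the RefSeq table (GRCh38.p14), in windows from 250 bases before to 50 after each start site. They were searched on the transcribed strand for the p53 decamer, whose core is C, then A or T at both middle positions, then G. The decamer is palindromic, so both strands are covered. Whole matches stood in 6 of the 26 members (23.08%) and in 8.06% of 27305 genes in the table. Paired matches, with 2 whole cores, at most 2 mismatches outside them and at most 13 bases between, stood in 3 members (11.54%) and in 1.81% of all genes. These 3 promoters, of DDB2, AEN and FAS, are shown because they held the only paired matches, with the cores in capitals. These genes were each called higher in a transient comparison with control, AEN only in the labelled libraries. POLH and SERTAD1 were called higher in such comparisons as well and had no match in these windows. In GFP cells after 48 h DDB2, AEN and FAS were among 17 of 33 members called higher, beside 32.4% of all genes. In ZMYND8 cells DDB2 and FAS were called lower after 6 h. Whether a match goes with a response was not tested.
DDB2 (chr11:47214979-47214999, plus strand, positions 6 to 26 after the start site, 0 mismatches): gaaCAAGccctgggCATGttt
AEN (chr15:88621306-88621325, plus strand, 34 to 15 bases before the start site, 2 mismatches): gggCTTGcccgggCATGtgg
FAS (chr10:88991309-88991328, plus strand, 122 to 103 bases before the start site, 2 mismatches): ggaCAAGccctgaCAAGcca
Single whole decamers also stood in FDXR, PLK2 and SESN1. A match of letters is a description of the window and not evidence of binding, and elements outside these windows, such as those in introns, were not searched.

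Before any doxorubicin the members spanned a wide range. Per kilobase of exon, the highest in untreated GFP cells were TNFRSF10B, the TRAIL death receptor, at 71.96 CPM per kb, the receptor kinase EPHA2 at 62.3 and the secreted stress cytokine GDF15 at 58.8. The ranges of EPHA2 (60.6 to 63.9) and GDF15 (56.4 to 61.2) overlapped, whereas both TNFRSF10B libraries lay above them. At the other end stood FAS at 0.807, CYFIP2 at 0.366, TIGAR at 0.353 and SPATA18 at 0.0051 CPM per kb. In untreated ZMYND8 cells the order began with EPHA2 (75.8) and GDF15 (73.5), whose ranges again overlapped, then PLK2 (67.7) and GADD45A (56.6), and TNFRSF10B came in rank 5 (43.1). AEN moved from rank 22 to rank 10 between the lines.

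**Figure D1:**
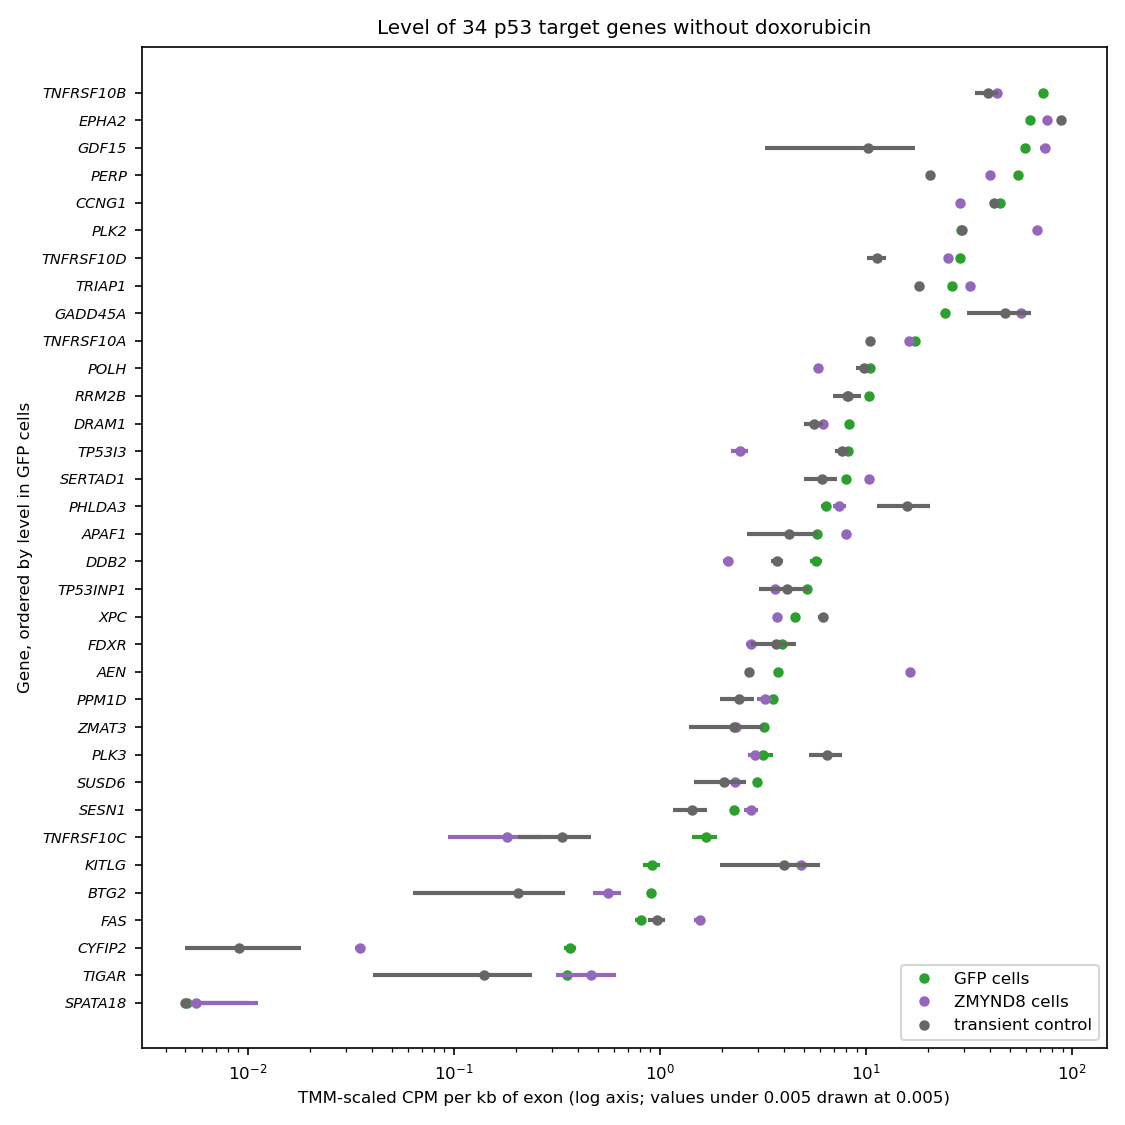
Level of the 34 members without doxorubicin, as TMM-scaled CPM per kb of exon on a log axis, in GFP cells (green), ZMYND8 cells (purple) and the transient control (grey). Points are means and lines span the 2 libraries, and genes run from SPATA18, near 0 in all 3, to TNFRSF10B at the top, with KITLG and AEN lying far higher, and CYFIP2 and TNFRSF10C far lower, in ZMYND8 than in GFP cells.

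In the transient system, 48 h of doxorubicin raised 3 members and lowered none at an adjusted p of at most 0.05. Of the 15697 genes tested 5.13% were called, 2.98% higher and 2.15% lower. With a 2-fold change asked for as well, 2 members were called, beside 4.08% of genes. The 3 were FAS, the receptor that starts apoptosis on binding its ligand, and the repair genes DDB2 and POLH. FAS stood at 5.92 and 4.87 CPM in the control libraries and at 16.3 and 21.2 with doxorubicin (log2 fold change 1.81, SE 0.287, adjusted p = 0.0092). All treated libraries lay above all control libraries, but without the second doxorubicin library its adjusted p was 0.066. POLH, the translesion polymerase eta, went from 31.5 and 37.6 to 78.7 and 70.5 CPM (log2 fold change 1.11, SE 0.205, adjusted p = 0.014). Its call was lost without the first control library (adjusted p = 0.061) and without either doxorubicin library (0.058 and 0.072). DDB2, the damage sensor of nucleotide excision repair, went from 19.3 and 16.9 to 36.5 and 31.7 CPM (log2 fold change 0.91, SE 0.229, adjusted p = 0.045). Its groups did not overlap, but its call was lost whichever of the 4 libraries was left out (adjusted p = 0.09 to 0.16) and with only the compared libraries in the fit (0.065). Part of the FAS exons (18.7%) lies opposite exons of ACTA2 and a neighbouring gene, and ACTA2 moved as well, from 7.63 and 5.39 CPM to 21.7 and 21.8, so transient FAS counts can hold ACTA2 reads. The inducible counts separate the strands, and FAS rose there too, but how much of the transient rise came from ACTA2 reads was not tested. The median log2 fold change was 0.13 over the 32 members and 0.00 over all genes.

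The calls above used no replicate block. With the replicate number as a block, 9 members were called, 7 higher and 2 lower, where 15.4% of all genes were. The added ones were the decoy receptor TNFRSF10C (log2 fold change 2.16), the stress-induced membrane protein SUSD6 (1.01), the apoptosis-enhancing nuclease AEN (0.96) and the cell cycle coregulator SERTAD1 (0.89), all higher. Those lower were the decoy receptor TNFRSF10D (−0.86) and the cyclin CCNG1 (−0.62). BTG2, an antiproliferative gene, was at 0.954 and 0.174 CPM in control and 1.91 and 1.602 in doxorubicin libraries, which did not overlap, but its change did not pass the test (log2 fold change 1.62, SE 0.694, adjusted p = 0.2).

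The labelled libraries differed from the transient controls at 7 members, 5 higher and 2 lower, where 6.82% of all genes were called, 3.85% higher and 2.97% lower. By at least 2-fold 3 were higher and 1 lower, beside 5.23% of genes. With total counts in place of TMM the split was 6 higher and 0 lower. FAS reached 24.9 and 21.01 CPM (log2 fold change 2.09, SE 0.29, adjusted p = 0.0054). AEN stood at 37.7 and 40.4 against 15.5 and 16.7 in control (log2 fold change 1.28, SE 0.26, adjusted p = 0.017). SERTAD1 stood at 30.6 and 30.9 against 15.1 and 10.4 (log2 fold change 1.27, SE 0.295, adjusted p = 0.029). DDB2 and POLH were called higher as well, with log2 fold changes of 0.91 and 0.96. TNFRSF10D fell to 19.1 and 19.4 from 35.9 and 44.02 CPM (log2 fold change −1.05, SE 0.25, adjusted p = 0.031). CCNG1 fell to 73.1 and 79.1 from 128 and 132 (log2 fold change −0.77, SE 0.197, adjusted p = 0.041). Neither passed the test with total counts (adjusted p = 0.052 and 0.083). FAS alone of the 7 remained called without both near-identical libraries, and 1 to 6 members were called when single libraries were left out. With the replicate block 9 members were called, 7 higher and 2 lower, against 17.8% of all genes. Between the labelled libraries and doxorubicin alone, 0 members were called by edgeR and 0 by DESeq2, where 0% of all genes were called, and no member had an unadjusted p of at most 0.05 against 54 genes in all. Chi-square over degrees of freedom was 1.39 between the second libraries of these groups, but 10.7 and 17.7 within the groups. This comparison could therefore hardly call any gene, and its 0 does not show that the groups are alike.

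In the inducible system 40.8% to 64.2% of all genes passed the adjusted threshold when doxorubicin was set against none, and counts of members are therefore read against that background and beside a second rule that also asks for a 2-fold change. After 6 h of doxorubicin in GFP cells 16 members were higher and 12 lower (28 of 33), where 47.9% of 18801 genes were called, 22.1% higher and 25.8% lower. By at least 2-fold 6 were higher and 3 lower (9 of 33), where 9.17% of genes were. After 48 h in GFP cells 17 were higher and 10 lower (27 of 33), against 64.2% of genes (32.4% and 31.8%). By at least 2-fold they were 5 and 2 (7 of 33), against 22.4%. In ZMYND8 cells 15 were higher and 10 lower after 6 h (25 of 33), against 40.8% (21.8% and 19%), and 1 higher and 1 lower by at least 2-fold, against 4.78%. After 48 h in ZMYND8 cells 16 were higher and 9 lower (25 of 33), against 62.3% (31.6% and 30.8%), and 5 and 1 by at least 2-fold (6 of 33), against 20.1%. Scaling mattered for the split at 48 h. With total counts in place of TMM the median over all genes, in log2 units, moved from 0.03 to 0.27 in GFP and from 0.05 to 0.25 in ZMYND8 cells. The split of members became 21 higher and 6 lower in GFP cells and 21 and 3 in ZMYND8 cells. The median log2 fold change of the members was 0.05 at 6 h and 0.21 at 48 h in GFP cells, beside −0.05 and 0.03 over all genes. It was 0.10 and 0.20 in ZMYND8 cells, beside −0.01 and 0.05. By the study's own cutoff, which takes unadjusted p-values up to 0.05 and changes of 1 (transient) or 1.5 (inducible) log2 units or more, 3 and 4 members were called in GFP cells at 6 and 48 h, beside 4.71% and 13.2% of genes. In ZMYND8 cells 1 and 2 were, beside 2.73% and 12.4%. The transient comparisons with control gave 5 and 7, beside 8.7% and 9.84%, and the labelled libraries against doxorubicin alone 0, beside 0.159%.

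**Figure D2:**
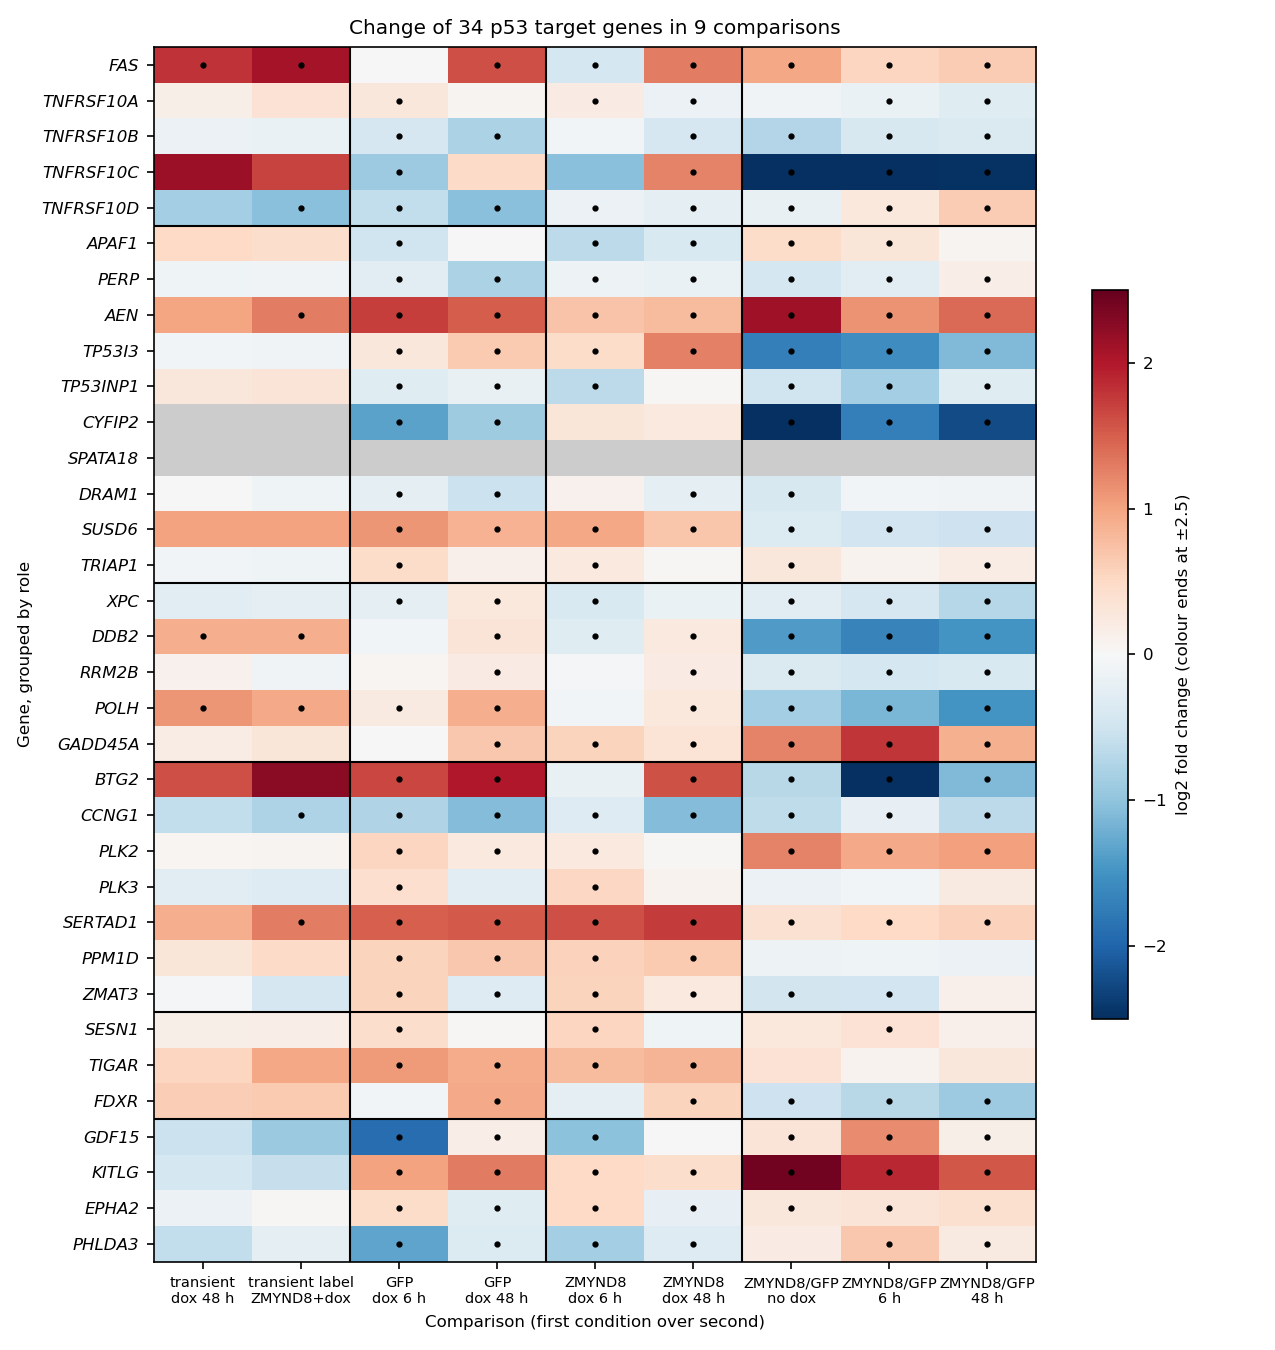
Log2 fold change of each member (rows, grouped by role) in 9 comparisons (columns), red for higher and blue for lower in the first condition named, with a black dot where the adjusted p is at most 0.05 and grey where a gene was not tested. The colour ends at 2.5 in either direction, and FAS, AEN, SERTAD1 and SUSD6 are red in all 4 columns of 48 h doxorubicin while CCNG1 and TNFRSF10D are blue in them. The 2 transient columns share their control libraries and have near-identical second treated libraries, so they are not separate observations.

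Among the death receptors, FAS was a late gene. Untreated GFP libraries held 4.21 and 4.799 CPM, those of 6 h 4.304 and 4.603, and those of 48 h 14.1 and 13.3. The 6 h libraries overlapped the untreated ones, and the rise came between 6 and 48 h (log2 fold change 1.62, SE 0.128, adjusted p = 1.8e-11). In ZMYND8 cells, where FAS started higher (log2 fold change 0.96, SE 0.136, adjusted p = 7.5e-07), it dipped at 6 h by a log2 fold change of −0.44 (adjusted p = 0.0063), a call lost without the second untreated or the first 6 h library. It went from 8.21 and 9.28 through 6.21 and 6.72 to 21.1 and 21.4 CPM (log2 fold change 1.27, SE 0.108, adjusted p = 7.4e-11 for 48 h against none). On the scale of a fold change the 48 h response did not pass the test of a difference between the lines (difference in log2 fold change −0.34, SE 0.17, adjusted p = 0.15). ACTA2, opposite FAS, was at 2.99 and 3.27 CPM in untreated and at 10.03 and 10.14 in 48 h GFP libraries.

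The receptors of the death ligand TRAIL went other ways. TNFRSF10B, a signalling receptor and the most abundant member per kilobase in untreated GFP cells, fell from 354 and 367 to 269 and 273 and 207 and 209 CPM (log2 fold change −0.8, SE 0.0383, adjusted p = 4.1e-16 at 48 h). TNFRSF10D, a decoy receptor without a working death domain, fell with it from 96.97 and 104 to 67.9 and 64.1 and 49 and 49.04 CPM (log2 fold change −1.04, SE 0.0509, adjusted p = 5.9e-16). The libraries of the 3 time points did not overlap for either gene. In ZMYND8 cells TNFRSF10D went from 88.8 and 87.8 to 77.2 and 74.9 CPM (log2 fold change −0.21, which was −0.01 and no longer called with total counts), and its 48 h response differed between the lines (difference in log2 fold change 0.82, SE 0.0704, adjusted p = 9.4e-10). TNFRSF10A, the other signalling receptor, moved little, at 50.1 and 51.3 CPM in untreated GFP cells and 64.7 and 57.9 after 6 h with a log2 fold change of 0.27 (adjusted p = 0.00027), and its small 48 h change in ZMYND8 cells (−0.15) turned to 0.05 with total counts. TNFRSF10C, the second decoy, was near the limit of detection, at 2.69 and 3.53 CPM in untreated GFP cells and 0.503 and 0.175 in untreated ZMYND8 cells (log2 fold change −3.25, SE 0.401, adjusted p = 7.8e-08). Its libraries did not overlap between the lines at any time point. Its late rise in ZMYND8 cells to 0.773 and 0.766 CPM (log2 fold change 1.24, SE 0.481, adjusted p = 0.027) rested on the second untreated library, without which the log2 fold change was 0.6 (adjusted p = 0.37). It was also lost without either 48 h library (adjusted p = 0.068 and 0.062). Of its exon length 39.3% is shared with other genes on the same strand. Such sharing was also found for FAS (21.9%), PHLDA3 (19.1%) and TIGAR (18.1%).

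Of the genes for cell death and autophagy, AEN, a nuclease that digests DNA in apoptosis, had the highest fold change of the members in GFP cells at 6 h, close to that of BTG2. It went from 21.7 and 22.8 to 73.4 and 73.1 CPM (log2 fold change 1.72, SE 0.0597, adjusted p = 2.1e-18) and stood at 65.1 and 62.1 after 48 h (log2 fold change 1.52, SE 0.0595, adjusted p = 5.1e-18). In ZMYND8 cells it was already at 99.3 and 95.3 CPM without drug (log2 fold change 2.13, SE 0.0575, adjusted p = 2.2e-21), above every GFP library, and went to 159 and 162 and 165 and 173 CPM. Its fold response was smaller there at both times (difference in log2 fold change −1.0, SE 0.0757, adjusted p = 6.4e-10 at 6 h and difference in log2 fold change −0.72, SE 0.0752, adjusted p = 3.1e-08 at 48 h). SUSD6 rose in both lines, in GFP cells from 17.4 and 17.03 to 38.6 and 34.95 CPM at 6 h (log2 fold change 1.1, SE 0.0811, adjusted p = 8.6e-12). In ZMYND8 cells it went from 13.3 and 13.7 to 26.5 and 26.5 CPM (log2 fold change 0.97, SE 0.0862, adjusted p = 5.8e-10). The difference between these responses did not pass the test (difference in log2 fold change −0.12, SE 0.119, adjusted p = 0.58).

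TP53I3, a quinone oxidoreductase linked to reactive oxygen, was higher at each later time in both lines. It went from 19.97 and 17.6 through 22.99 and 22.9 to 29.5 and 29.7 CPM in GFP cells and from 5.14 and 6.22 through 6.56 and 9.19 to 13.7 and 13.9 in ZMYND8 cells. The 6 h step lost its call in GFP cells without the second untreated library (0.2, adjusted p = 0.23) or either 6 h library (adjusted p = 0.085 and 0.078). In ZMYND8 cells it was lost without the first untreated (0.33, adjusted p = 0.14) or the second 6 h library (0.2, adjusted p = 0.4). Its basal level was lower in the ZMYND8 line (log2 fold change −1.71, SE 0.128, adjusted p = 5.7e-12). Its 48 h fold response was larger (difference in log2 fold change 0.61, SE 0.167, adjusted p = 0.0064), although the latter lost its call without the first untreated ZMYND8 library (0.48, adjusted p = 0.056). CYFIP2, an actin regulator of the WAVE complex, stood at 4.11 and 3.59 CPM in untreated GFP cells and fell to 1.58 and 1.45 at 6 h (log2 fold change −1.35, SE 0.285, adjusted p = 0.00027). In ZMYND8 cells it was close to absent at 0.391 and 0.3501 CPM (log2 fold change −3.36, SE 0.354, adjusted p = 4.4e-09). These untreated ZMYND8 libraries held only 7 and 8 counts of it, so the size of this difference rests on values near the floor.
PERP, a desmosomal apoptosis effector, fell from 229.6 and 227 to 132 and 134 CPM in GFP cells (log2 fold change −0.78, SE 0.0406, adjusted p = 1.8e-15). Its 48 h change in ZMYND8 cells was −0.17 and turned to 0.03 with total counts. The lysosomal autophagy gene DRAM1 went from 32.2 and 32.6 to 21.97 and 22.5 CPM in GFP cells (log2 fold change −0.54, SE 0.0742, adjusted p = 3.8e-07). APAF1, the core of the apoptosome, dipped at 6 h in both lines, from 45.8 and 45.99 to 30.97 and 34.5 CPM in GFP cells, a log2 fold change of −0.49 (adjusted p = 2.1e-06). It went from 66.6 and 60.5 to 42.04 and 38.2 in ZMYND8 cells with one of −0.66 (adjusted p = 7e-09). After 48 h it was at 48.1 and 44.9 in GFP cells. The stress protein TP53INP1 also dipped at 6 h, by log2 fold changes of −0.31 in GFP and −0.66 in ZMYND8 cells, and its lower level at 48 h in GFP cells (−0.19) turned to 0.06 with total counts. TRIAP1, a small inhibitor of apoptosis, rose at 6 h in both lines (0.46 and 0.25).

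**Figure D3:**
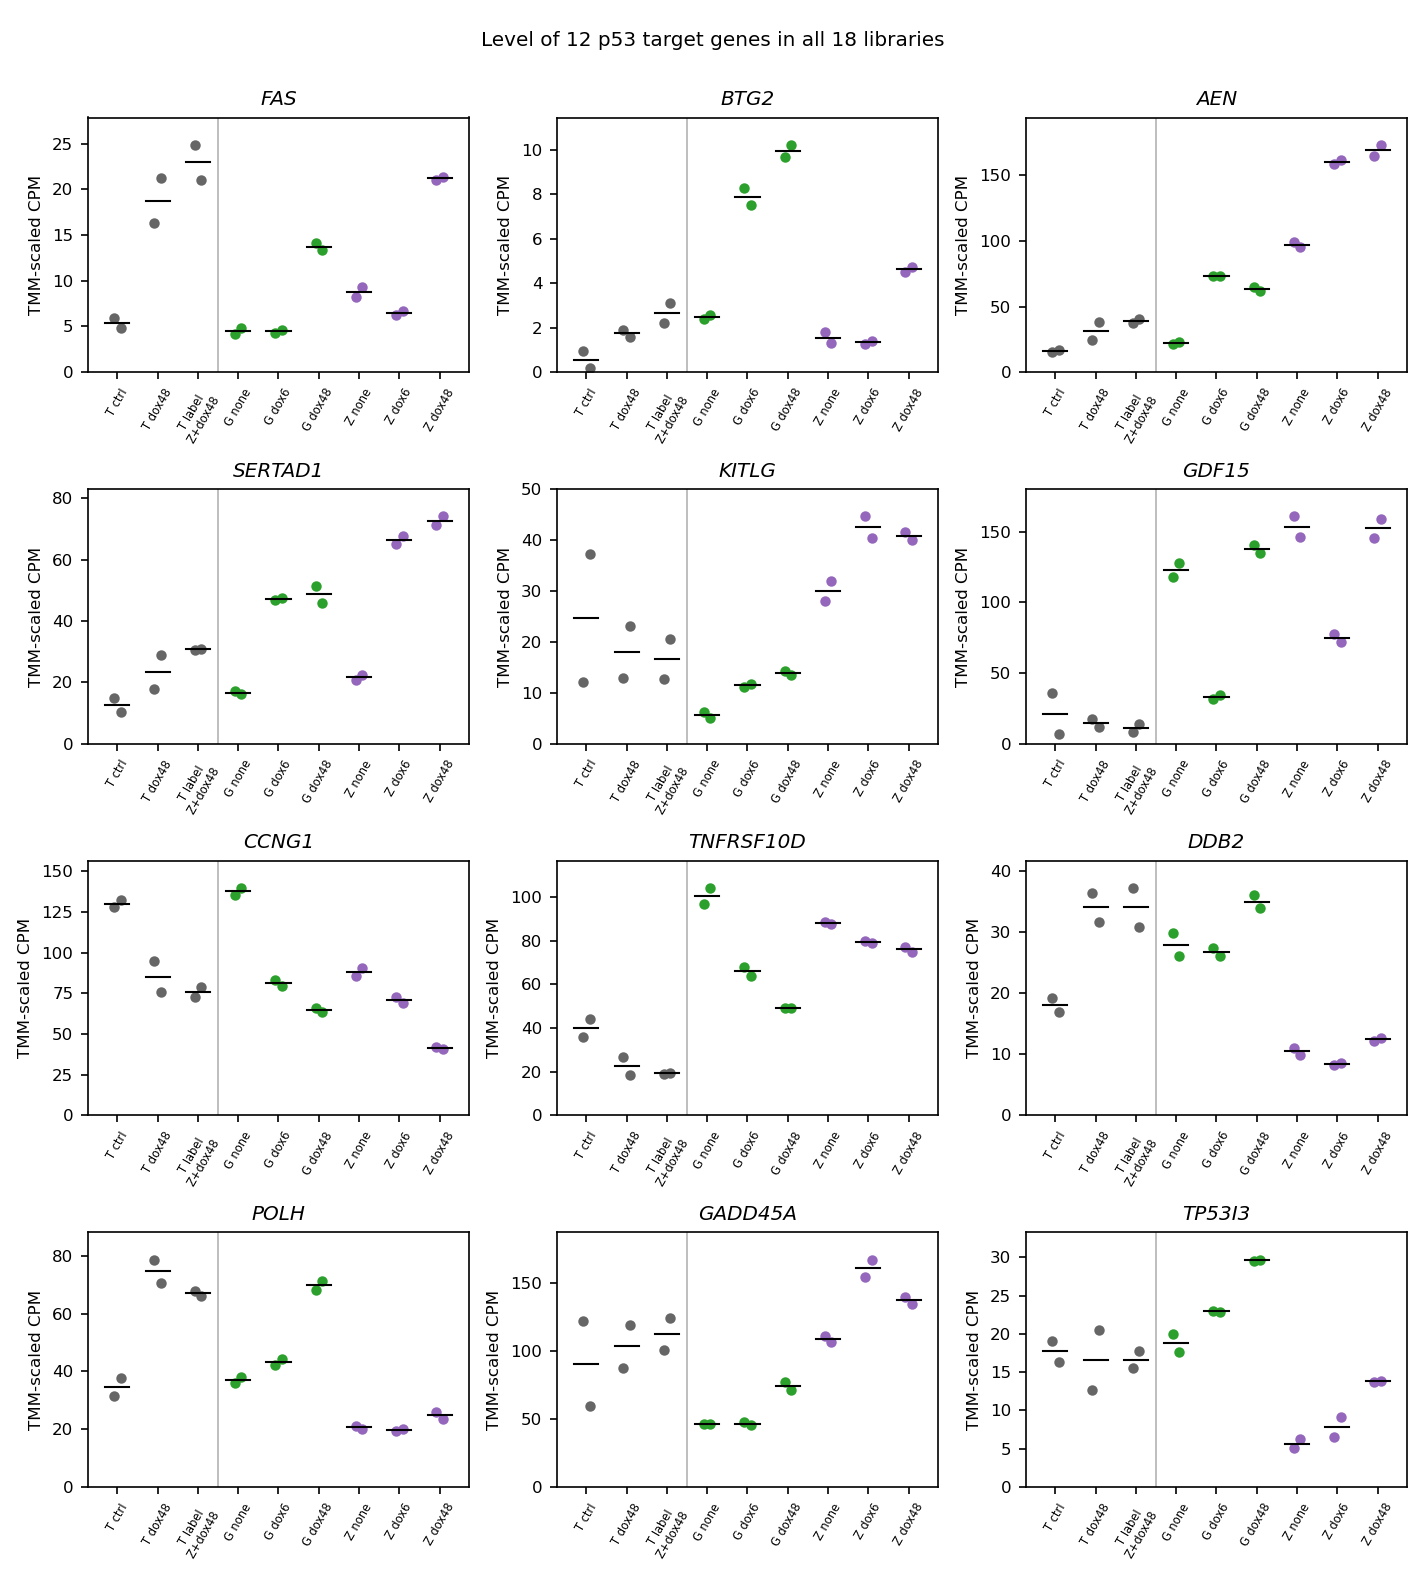
TMM-scaled CPM of 12 members in each of the 18 libraries, on linear axes from 0, with points for libraries and bars for the mean of 2, for the transient system (grey), GFP cells (green) and ZMYND8 cells (purple). FAS stays near 4.5 CPM at 6 h in GFP cells and reaches about 13.7 at 48 h, BTG2 rises by 6 h in GFP but not in ZMYND8 cells, and GDF15 dips at 6 h in both lines.

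The repair genes were higher at 48 h in GFP cells in all 5 cases, and 4 of them were higher in ZMYND8 cells, where 32.4% and 31.6% of all genes were called higher. POLH rose from 35.99 and 37.9 through 42.2 and 44.2 to 68.3 and 71.2 CPM in GFP cells (log2 fold change 0.92, SE 0.0634, adjusted p = 8.7e-13). In ZMYND8 cells it began lower, at 21.1 and 20.2 CPM (log2 fold change −0.84, SE 0.0736, adjusted p = 1.3e-10), and reached 25.8 and 23.7. Its 48 h response was smaller (difference in log2 fold change −0.65, SE 0.0989, adjusted p = 1e-05), and the lines stood further apart after treatment (log2 fold change −1.49, SE 0.0649, adjusted p = 7.5e-17). DDB2, with the best-matched paired decamer shown above, stood at 29.8 and 26.1 CPM without drug and at 36.04 and 33.9 after 48 h in GFP cells (log2 fold change 0.32, SE 0.0821, adjusted p = 0.0013), a call that was lost without the second untreated library (0.22, adjusted p = 0.06). ZMYND8 cells held 11.1 and 9.89 and 12.2 and 12.6 CPM. These ZMYND8 libraries lay far under all GFP libraries (log2 fold change −1.42, SE 0.0968, adjusted p = 7.6e-13 without drug). The small late rise there was lost with DESeq2 (adjusted p = 0.073) and without the second untreated library (0.16, adjusted p = 0.33). GADD45A, a growth arrest and repair factor, was higher in ZMYND8 cells from the start, at 111 and 107 against 46.5 and 46.04 CPM (log2 fold change 1.23, SE 0.055, adjusted p = 1.1e-16). It answered at 6 h in ZMYND8 cells, to 154 and 167 CPM (log2 fold change 0.56, SE 0.0483, adjusted p = 3.5e-10), when GFP cells were still at 47.5 and 45.7. GFP cells followed by 48 h, to 77.3 and 71.2 (log2 fold change 0.68, SE 0.0564, adjusted p = 3.5e-11). The 6 h response differed between the lines (difference in log2 fold change 0.55, SE 0.0779, adjusted p = 1.6e-05). RRM2B, which supplies nucleotides for repair, had log2 fold changes against untreated cells of 0.21 in GFP and 0.2 in ZMYND8 cells at 48 h. XPC, a damage recognition factor, was lower at 6 h in both lines (−0.24 and −0.38) and slightly higher at 48 h in GFP cells (0.26). Both were lower in ZMYND8 cells at 48 h, with log2 fold changes of −0.37 and −0.71.

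In the group of growth arrest and feedback genes, 6 of 7 members were higher at 6 h in GFP cells and 5 in ZMYND8 cells, beside 22.1% and 21.8% of all genes. BTG2 gave the largest difference between the lines in the 6 h response of any member. In GFP cells it went from 2.38 and 2.58 to 8.29 and 7.49 CPM at 6 h (log2 fold change 1.67, SE 0.185, adjusted p = 1.8e-08) and 9.68 and 10.2 at 48 h (log2 fold change 2.0, SE 0.178, adjusted p = 1.6e-10). The ZMYND8 line held 1.79 and 1.31 CPM without drug and 1.28 and 1.42 after 6 h, with overlapping libraries, and rose by 48 h, to 4.51 and 4.72 (log2 fold change 1.59, SE 0.206, adjusted p = 1.8e-07). The 6 h responses differed (difference in log2 fold change −1.85, SE 0.319, adjusted p = 0.00021), and at 48 h the difference did not pass the test (difference in log2 fold change −0.41, SE 0.285, adjusted p = 0.32). SERTAD1, which binds cyclin-dependent kinase complexes and E2F factors, rose early and stayed up in both lines. It went from 17.1 and 16.2 to 46.8 and 47.5 and then 51.5 and 45.8 CPM in GFP cells (log2 fold change 1.5, SE 0.0752, adjusted p = 3.4e-15 at 6 h). In the ZMYND8 line it went from 20.8 and 22.5 to 65.2 and 67.6 and then 71.3 and 74.1 (log2 fold change 1.61, SE 0.0684, adjusted p = 4.4e-16). No difference in its response passed the test at either time (differences of 0.12 and 0.2).

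PPM1D, the phosphatase that switches off the damage response, rose at 6 h in both lines (log2 fold changes 0.55 and 0.57) and was still up at 48 h (0.67 and 0.65). CCNG1, an atypical cyclin, fell in both lines, from 136 and 139.7 through 82.9 and 79.6 to 66.01 and 63.6 CPM in GFP cells (log2 fold change −1.09, SE 0.0482, adjusted p = 6.8e-17). Its levels went from 85.8 and 90.8 through 72.6 and 68.8 to 41.9 and 40.9 in ZMYND8 cells (log2 fold change −1.09, SE 0.0522, adjusted p = 4.4e-16). No libraries of different time points overlapped. The polo-like kinase PLK2 was more abundant in ZMYND8 cells, at 304 and 325 against 132 and 136 CPM (log2 fold change 1.23, SE 0.0416, adjusted p = 2.7e-19). It rose at 6 h in both lines, to 371 and 375 and 196 and 193. PLK3, its relative, rose at 6 h by 0.42 in GFP and 0.51 in ZMYND8 cells on the log2 scale. The RNA-binding protein ZMAT3 rose at 6 h in both lines (0.56 and 0.55) and then parted, since its 48 h responses of −0.33 in GFP and 0.25 in ZMYND8 cells differed (difference in log2 fold change 0.58, SE 0.101, adjusted p = 6.3e-05). The lower value in GFP cells was −0.09 and no longer called with total counts.

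Of the metabolic members, TIGAR, which diverts glycolysis, stood at 3.396 and 3.27 CPM in untreated GFP cells and 6.88 and 7.01 after 6 h (log2 fold change 1.06, SE 0.207, adjusted p = 0.00011), and the libraries did not overlap. In ZMYND8 cells the untreated libraries were unequal, at 5.81 and 2.98 CPM, and the 6 h rise to 7.34 and 7.51 lost its call without the second of them (0.36, adjusted p = 0.15). FDXR, a mitochondrial electron carrier reductase, was a late gene like FAS, at 13.8 and 14.5 CPM without drug, 13.9 and 13.2 after 6 h and 29.2 and 25.2 after 48 h in GFP cells (log2 fold change 0.94, SE 0.097, adjusted p = 2.5e-09). The ZMYND8 line reached 15.2 and 13.95 CPM from 10.6 and 9.41 (log2 fold change 0.55, SE 0.108, adjusted p = 7.6e-05). SESN1, a stress-induced regulator of growth signalling, was higher at 6 h and not at 48 h, with log2 fold changes of 0.43 in GFP and 0.54 in ZMYND8 cells at 6 h and of 0.03 (adjusted p = 0.87) and −0.1 (adjusted p = 0.45) at 48 h.

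Of the secreted and signalling members, GDF15 gave the steepest fall of all members at 6 h in GFP cells. It dropped from 118 and 128 to 31.7 and 34.2 CPM (log2 fold change −1.9, SE 0.0655, adjusted p = 2e-18) and was at 140.2 and 135 after 48 h. The ZMYND8 line went from 161 and 146 to 77.6 and 72.1 CPM (log2 fold change −1.03, SE 0.0571, adjusted p = 6.7e-14) and returned to 146 and 159. The 6 h fall was smaller in ZMYND8 cells (difference in log2 fold change 0.87, SE 0.0881, adjusted p = 1.2e-07). PHLDA3, an inhibitor of AKT signalling, also fell at 6 h and then rose, from 21.1 and 18.99 to 8.03 and 8.14 and then 16.7 and 15.1 CPM in GFP cells (log2 fold change −1.31, SE 0.116, adjusted p = 3e-10 at 6 h). It went from 25.1 and 21.6 to 12.6 and 13.1 and then 17.2 and 20.1 in ZMYND8 cells (log2 fold change −0.85, SE 0.105, adjusted p = 1.9e-07). At 48 h PHLDA3 was still lower than without drug in both lines (log2 fold changes −0.34 and −0.32), calls that were lost with total counts. KITLG, the ligand of the KIT receptor, was far higher in ZMYND8 cells, at 27.98 and 31.99 against 6.24 and 5.12 CPM without drug (log2 fold change 2.4, SE 0.11, adjusted p = 1.9e-16). It rose in GFP cells to 11.2 and 11.8 and then 14.4 and 13.5 CPM (log2 fold change 1.29, SE 0.121, adjusted p = 3.7e-10 at 48 h). Its fold response was smaller in ZMYND8 cells, where it went to 44.7 and 40.5 and then 41.6 and 39.99 (difference in log2 fold change −0.85, SE 0.147, adjusted p = 5.5e-05 at 48 h). EPHA2 rose at 6 h in both lines (log2 fold changes 0.45 and 0.49), and its small negative values at 48 h (−0.3 and −0.2) became −0.06 and 0.01, neither called, with total counts.

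By its calls at 6 h, between 6 and 48 h and at 48 h, each of the 33 members tested in GFP cells fell into 1 of 11 patterns. TP53I3, POLH and KITLG rose at 6 h and again to 48 h. BTG2, SERTAD1, PPM1D and TIGAR were up at 6 h and at 48 h with no call between these times. FAS, DDB2, RRM2B, GADD45A and FDXR were called between 6 and 48 h and at 48 h but not at 6 h. AEN, SUSD6 and PLK2 were higher at 6 h, fell after it and were still higher at 48 h. TNFRSF10A, TRIAP1, PLK3 and SESN1 were higher at 6 h, fell after it and were not called at 48 h, and ZMAT3 and EPHA2 went on to be called lower. With total counts, the second step of AEN, SUSD6 and TNFRSF10A turned in sign, and that of PLK2, TRIAP1 and SESN1 was not called. XPC and GDF15 were lower at 6 h and slightly higher at 48 h. After a fall at 6 h and a rise, TNFRSF10C and APAF1 were not called at 48 h and PHLDA3 was lower. TP53INP1 and CYFIP2 were lower at 6 h and at 48 h with no call between. TNFRSF10B, TNFRSF10D, PERP, DRAM1 and CCNG1 fell at each step, although the second step of DRAM1 and CCNG1 was not called with total counts. Between 6 and 48 h 13 members rose and 14 fell in GFP cells, against 62.2% of all genes called (32% and 30.2%), and with total counts 18 rose and 6 fell. In ZMYND8 cells 12 rose and 12 fell, against 61.5% (30.2% and 31.3%), and with total counts 19 rose and 3 fell. By at least 2-fold 4 rose and 0 fell in each line (12.1% of the members tested), against 20.1% and 19.7% of all genes in either direction. The shares of all genes were not split by direction for this rule, so the split of 4 and 0 has no background to be read against. By the study's cutoff 2 and 3 members were called, beside 13.1% and 12.9% of genes.

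Lines compared at the same time differed at most members. Without drug 10 members were higher and 17 lower in ZMYND8 than in GFP cells, where 58.3% of all genes were called (28.7% and 29.5%). There were 4 higher and 4 lower by at least 2-fold, where 17.8% were. The 4 higher were AEN, GADD45A, PLK2 and KITLG, and the 4 lower TNFRSF10C, TP53I3, CYFIP2 and DDB2. TNFRSF10C (9 and 4 counts) and CYFIP2 (7 and 8) were near the floor in untreated ZMYND8 cells. After 6 h 12 were higher and 16 lower (55.5% of all genes called, 28.9% and 26.6%), 4 and 6 of them by at least 2-fold (16%). After 48 h 12 were higher and 14 lower (60%, 28.4% and 31.6%), 3 and 6 by at least 2-fold (17.5%). The study's cutoff called 5, 7 and 3 members at these times, beside 11.4%, 10.6% and 9.44% of genes. The repair group was lower in ZMYND8 cells for 4 of its 5 members at each time, all but GADD45A. The response to the drug itself differed between the lines at 10 members after 6 h, 6 with a more positive and 4 with a more negative change in ZMYND8 cells. Of all genes 13.4% were called, 7.86% and 5.52%. After 48 h it differed at 14, 6 and 8, where 28.6% of genes were called, 12.7% and 15.8%. With total counts the 6 h split was 5 and 7. AEN and BTG2 differed by at least 2-fold at 6 h, where 1.03% of all genes did, and no member did at 48 h, where 4.45% did. By the study's cutoff 2 members were called at 6 h and 0 at 48 h, beside 2.01% and 3.7%.

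**Figure D4:**
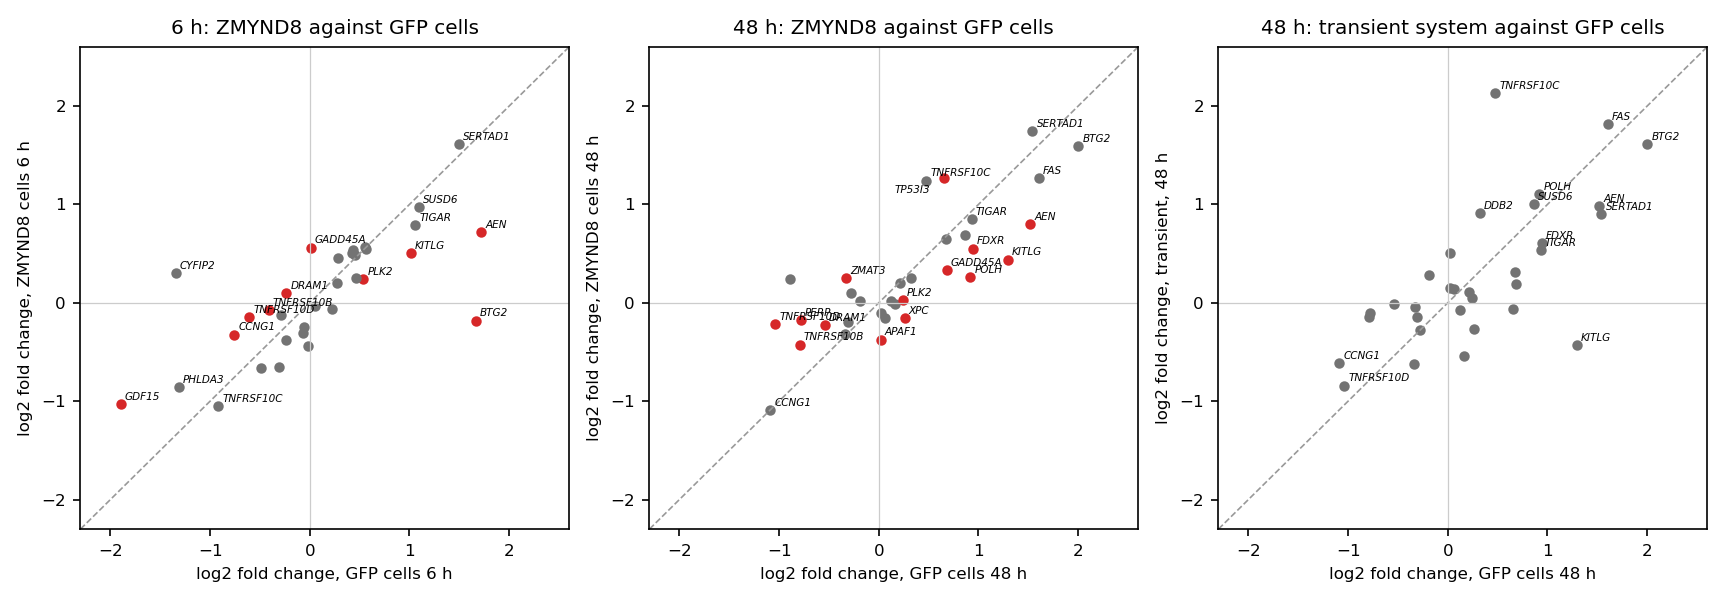
Log2 fold change of each member in pairs of comparisons that share no library, with the diagonal dashed. In the left and middle panels (ZMYND8 against GFP cells at 6 h and at 48 h) red points are members whose responses differed at an adjusted p of at most 0.05, with BTG2 and AEN far under the diagonal at 6 h, and the right panel sets the transient against the GFP response at 48 h, where FAS, BTG2 and SERTAD1 are positive in both.

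The doxorubicin responses of the systems and lines rest on separate libraries. Over the 32 members tested in both, the 48 h log2 fold changes of the transient system and of GFP cells had a Pearson r of 0.69 and a Spearman rho of 0.70, with the same sign in 26. Over the 15082 genes tested in both, r was 0.64 and 74.5% had the same sign. The 3 members called in the transient system (FAS, DDB2 and POLH) were called in the same direction in GFP cells. Between GFP and ZMYND8 cells r was 0.74 at 6 h and 0.82 at 48 h over 33 members, and 0.42 and 0.79 over all genes. There, 22 members were called in both lines at 6 h, all 22 in the same direction, and 22 at 48 h, 21 in the same direction, with ZMAT3 opposite. Of all genes 31.7% and 49.5% were called in both lines, and 97.4% and 94% of those moved in the same direction, a share close to that of the members. These are descriptions across genes of 1 cell line under the same dose, and genes are not independent replicates.

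Regulators and other targets of the pathway were given by lists. Among the regulators, TP73, a factor that can bind the same elements, rose from 4.87 and 3.74 to 25.5 and 24.7 CPM in GFP cells (log2 fold change 2.54, SE 0.138, adjusted p = 4.8e-15). It rose from 4.41 and 3.11 to 13.6 and 13.4 in ZMYND8 cells (log2 fold change 1.87, SE 0.148, adjusted p = 1.7e-11). In the transient system it rose from 3.05 and 3.65 to 13.02 and 15.3 CPM (log2 fold change 2.08, SE 0.322, adjusted p = 0.0087). The groups did not overlap in any of these. TP63, its relative, was low in GFP cells, at 2.28 and 1.48 CPM without drug. After 6 h it was lower, at 0.105 and 0.321 CPM without overlap, but from so few counts that no fold change is given. MDM2, a ubiquitin ligase in the feedback loop of the pathway, was at 56.6 and 57.01 CPM without drug and 48.7 and 49.9 after 48 h in GFP cells, a log2 fold change of −0.2 (adjusted p = 0.0037), which was 0.04 and not called with total counts. The transient control libraries held 33.96 and 54.8 CPM and the doxorubicin libraries 44.6 and 53.3, which overlapped.

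Of 12 other targets 10 were tested in the inducible system, and 6 were higher and 1 lower after 48 h in GFP cells and 4 and 2 in ZMYND8 cells, or 8 and 1, and 7 and 1, with total counts. The called share, 7 of 10 and 6 of 10, was near the 64.2% and 62.3% of all genes. CDKN1A, the cyclin-dependent kinase inhibitor p21, rose from 114 and 106 through 236 and 231 to 447 and 446 CPM in GFP cells (log2 fold change 2.02, SE 0.0426, adjusted p = 2e-23). It rose from 133 and 135 through 155 and 159 to 263 and 256 in ZMYND8 cells (log2 fold change 0.95, SE 0.0419, adjusted p = 7.2e-17). Its response was smaller in ZMYND8 cells at 48 h (difference in log2 fold change −1.07, SE 0.0594, adjusted p = 3.6e-13). In the transient system it went from 73.8 and 45.1 to 251 and 253 CPM (log2 fold change 2.09, SE 0.249, adjusted p = 0.0046). The death gene BBC3 fell at 6 h in GFP cells, from 25.1 and 24.7 to 6.67 and 8.403 CPM (log2 fold change −1.73, SE 0.117, adjusted p = 1.6e-12). The ZMYND8 line went from 15.9 and 17.5 to 6.21 and 6.04 (log2 fold change −1.45, SE 0.126, adjusted p = 3.8e-10). PMAIP1, another death gene, was higher in ZMYND8 cells, at 1118 and 1120 against 119 and 117 CPM (log2 fold change 3.25, SE 0.05, adjusted p = 1.1e-26).

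The integrated stress response shares targets with this pathway, and its 7 listed genes were split, with 3 higher and 4 lower after 48 h in GFP cells and 3 and 4 in ZMYND8 cells, where total counts gave 3 and 2. All 7 were thus called in both lines, beside 64.2% and 62.3% of all genes. ATF3 rose from 12.5 and 14.5 to 36.4 and 37.3 CPM in GFP cells (log2 fold change 1.45, SE 0.0722, adjusted p = 7.6e-16). It rose from 55.2 and 55.1 to 172 and 169 in ZMYND8 cells (log2 fold change 1.63, SE 0.0495, adjusted p = 3.4e-20). ATF4 fell from 441 and 459.7 to 235 and 235 CPM at 6 h in GFP cells (log2 fold change −0.94, SE 0.038, adjusted p = 4.2e-17), the time of the GDF15 dip. It fell from 399.5 and 401 to 345 and 343 in ZMYND8 cells (log2 fold change −0.22, SE 0.0372, adjusted p = 2.3e-05). The part of these factors in the members' changes was not tested.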

How the data were processed

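MDA-MB-231 RNA was sequenced in 18 libraries of 9 conditions. The deposited values are raw read counts per gene, made by the authors with featureCounts 1.6.4 on hg38 and GENCODE 31 in reverse-stranded, paired mode per the file headers. The submitters' processing notes also name Trim Galore, HISAT2 and DESeq2, whereas the study's methods name another aligner. No count was altered here. One item of the regulator list is not reported here, nor are counts over that list. The members and lists were chosen with earlier results of these data known.

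Each system was fitted separately with edgeR 4.0.16 in R 4.3.3, with TMM factors, edgeR's filter on low counts and the quasi-likelihood test, and p-values were adjusted by Benjamini-Hochberg over all 15697 (transient) or 18801 (inducible) genes tested. Genes were called at an adjusted p of at most 0.05, and a 2-fold rule was added after seeing the data. The standard error is the absolute log2 fold change divided by the square root of F. An exact permutation test of 2 against 2 libraries cannot go under a two-sided p of 0.333, so none was used. Full values are given for members called with at least a 2-fold change in any of the 14 comparisons, and the others by short statements. DESeq2 1.42.0, total-count scaling, other filters, a replicate block and left-out libraries were the alternatives. The fit was tested on simulated data, for 48 h of doxorubicin against none. In the transient system it recovered 35.3% of 2-fold and 89.5% of 4-fold changes, and 5.64% of its calls were false. In the inducible system it recovered 72.4% and 90.7%, and 6.96% of its calls were false. Each of 3 simulated draws changed 200 genes, out of 15377 transient or 17581 inducible ones. In the data 5.13% and 64.2% of genes were called in these comparisons. The simulated rates therefore do not carry over to the calls reported here.

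Labels call the replicates biological but do not say that they came from separate cultures, so p-values measure the spread between these libraries. Deviations of equally numbered transient libraries correlated at 0.212, 0.337 and 0.401. The main fit used no pairing, and the number served as a block in an alternative, from the data and not from the labels. The 0.401 lies between the doxorubicin and the labelled group, whose second libraries are near-identical. In the inducible system the correlations ran from −0.0468 to 0.0196. Depth was 5729294 to 24713822 counts (transient) and 18300628 to 23724398 (inducible). RefSeq promoter windows (GRCh38.p14) were not used here for 8 members, TNFRSF10A, TNFRSF10B, TNFRSF10C, TNFRSF10D, TP53INP1, RRM2B, GADD45A and PHLDA3.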

Additional observations from a re-analysis of the deposited data

Results flagged for a closer look

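The members below are listed because their response to doxorubicin differed between the GFP and the ZMYND8 line by a test of the difference itself, the interaction term of edgeR's quasi-likelihood fit with Benjamini-Hochberg adjustment over all genes. A difference is the log2 fold change in ZMYND8 cells minus that in GFP cells, with 2 libraries per condition. At 6 h there were 10. GADD45A had a difference of 0.55 (adjusted p = 1.6e-05), from log2 fold changes of 0.01 in GFP and 0.56 in ZMYND8 cells. BTG2 had a difference of −1.85 (adjusted p = 0.00021), from log2 fold changes of 1.67 in GFP and −0.18 in ZMYND8 cells. PLK2 had a difference of −0.29 (adjusted p = 0.00082), from log2 fold changes of 0.54 in GFP and 0.24 in ZMYND8 cells. CCNG1 had a difference of 0.44 (adjusted p = 7.6e-05), from log2 fold changes of −0.76 in GFP and −0.32 in ZMYND8 cells. TNFRSF10B had a difference of 0.34 (adjusted p = 9.2e-05), from log2 fold changes of −0.41 in GFP and −0.07 in ZMYND8 cells. TNFRSF10D had a difference of 0.46 (adjusted p = 5e-05), from log2 fold changes of −0.61 in GFP and −0.15 in ZMYND8 cells. KITLG had a difference of −0.51 (adjusted p = 0.025), from log2 fold changes of 1.01 in GFP and 0.50 in ZMYND8 cells. DRAM1 had a difference of 0.33 (adjusted p = 0.037), from log2 fold changes of −0.23 in GFP and 0.10 in ZMYND8 cells. AEN had a difference of −1.0 (adjusted p = 6.4e-10), from log2 fold changes of 1.72 in GFP and 0.72 in ZMYND8 cells. GDF15 had a difference of 0.87 (adjusted p = 1.2e-07), from log2 fold changes of −1.90 in GFP and −1.03 in ZMYND8 cells. KITLG lost its call when any of 4 single libraries was left out, and DRAM1 with total counts in place of TMM (adjusted p = 0.13).

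At 48 h there were 14. GADD45A had a difference of −0.35 (adjusted p = 0.00067), from log2 fold changes of 0.68 in GFP and 0.33 in ZMYND8 cells. TP53I3 had a difference of 0.61 (adjusted p = 0.0064), from log2 fold changes of 0.65 in GFP and 1.27 in ZMYND8 cells. XPC had a difference of −0.42 (adjusted p = 0.02), from log2 fold changes of 0.26 in GFP and −0.16 in ZMYND8 cells. ZMAT3 had a difference of 0.58 (adjusted p = 6.3e-05), from log2 fold changes of −0.33 in GFP and 0.25 in ZMYND8 cells. PLK2 had a difference of −0.21 (adjusted p = 0.0056), from log2 fold changes of 0.24 in GFP and 0.03 in ZMYND8 cells. POLH had a difference of −0.65 (adjusted p = 1e-05), from log2 fold changes of 0.92 in GFP and 0.27 in ZMYND8 cells. PERP had a difference of 0.61 (adjusted p = 4.4e-09), from log2 fold changes of −0.78 in GFP and −0.17 in ZMYND8 cells. TNFRSF10B had a difference of 0.37 (adjusted p = 7e-06), from log2 fold changes of −0.80 in GFP and −0.42 in ZMYND8 cells. TNFRSF10D had a difference of 0.82 (adjusted p = 9.4e-10), from log2 fold changes of −1.04 in GFP and −0.21 in ZMYND8 cells. KITLG had a difference of −0.85 (adjusted p = 5.5e-05), from log2 fold changes of 1.29 in GFP and 0.44 in ZMYND8 cells. APAF1 had a difference of −0.39 (adjusted p = 0.0018), from log2 fold changes of 0.02 in GFP and −0.37 in ZMYND8 cells. DRAM1 had a difference of 0.31 (adjusted p = 0.028), from log2 fold changes of −0.54 in GFP and −0.23 in ZMYND8 cells. AEN had a difference of −0.72 (adjusted p = 3.1e-08), from log2 fold changes of 1.52 in GFP and 0.80 in ZMYND8 cells. FDXR had a difference of −0.39 (adjusted p = 0.045), from log2 fold changes of 0.94 in GFP and 0.55 in ZMYND8 cells. DRAM1 was not called with total counts (adjusted p = 0.056), and FDXR was not called by DESeq2 (adjusted p = 0.12) or without the first treated GFP library (0.22). Each line is 1 derived culture, so these differences and any other difference between the lines cannot be told apart.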

How the results depend on the processing

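Doxorubicin against control in the transient system called 3 members, and 5 with the study's cutoff on unadjusted p, 5 with total counts, 5 with DESeq2, 8 with no filter, 9 with the replicate block and 0 to 5 with single libraries left out (0 without the second doxorubicin library). The labelled ZMYND8 libraries against control gave 7, and 4 with the 2-fold rule, 1 without both near-identical libraries and 1 to 6 with single libraries left out. In the inducible system the 2-fold rule and the study's cutoff gave 9 and 3 members for GFP cells at 6 h, 7 and 4 at 48 h, and 4 and 2 for 48 h against 6 h. They gave 2 and 1, 6 and 2, and 4 and 3 for the same comparisons in ZMYND8 cells. Between the lines they gave 8 and 5 without drug, 10 and 7 at 6 h, and 9 and 3 at 48 h, and for the difference in response 2 and 2 at 6 h and 0 and 0 at 48 h. With single libraries left out, the inducible counts at the adjusted threshold alone stayed within 1.5 times of those reported.

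Total counts turned 11 calls, all small: in GFP cells TP53INP1 at 48 h (0.058) and, for 48 h against 6 h, TNFRSF10A (0.034), AEN (0.043) and SUSD6 (0.015). In ZMYND8 cells they turned TNFRSF10A (0.054), PERP (0.033) and EPHA2 (0.008) at 48 h and, for 48 h against 6 h, SUSD6 (0.008), TRIAP1 (0.056), GADD45A (0.06) and PLK2 (0.073). Of 271 calls, 67 were of at least 2-fold, and 6 of these were lost under some alternative other than the study's cutoff: FAS and POLH with doxorubicin and TNFRSF10D, AEN and SERTAD1 in the labelled libraries of the transient system, and TNFRSF10C at 48 h in ZMYND8 cells. In the inducible system, where the replicate numbers did not pair the libraries, the block ended 1 call, PHLDA3 between the lines at 48 h (0.23, adjusted p = 0.052). The cause was not tested for any of these. With 2 libraries per condition in both, the biological coefficient of variation was 0.191 for transient and 0.0368 for inducible libraries. This limits the former for changes of 2-fold or less.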
